A study of Mus musculus with 28 samples.

Results

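The genes described here are 9 markers of the connective tissue and vessel wall of the kidney: the growth factor receptors Pdgfra and Pdgfrb, the mural cell genes Rgs5, Acta2 and Tagln, and the matrix genes Col1a1, Col1a2, Col3a1 and Dcn. They were chosen by name, as the rows of the deposited count table whose Ensembl identifiers map to these symbols, and make up 9 of the 56748 genes in the table. All 9 passed the filter on low counts. The study profiled polyadenylated RNA from kidneys of mice carrying wild type (WT) Aqp3, a form that mimics acetylation (Q) or a form that mimics the deacetylated protein (R). Aqp3 encodes aquaporin-3, a water and glycerol channel of the collecting duct. There were 6 groups: males of each genotype with 5 libraries a group, females with WT or Q with 5 each, and R females with 3. All mice were untreated and kept in standard housing, and all kidneys were excised in the early light phase, freed of their capsule and frozen. The sources used here give no strain, age or promoter, and the tissue is whole kidney, so every value is an average over all of its cells. They also do not say whether libraries of a group came from separate animals, so p-values measure the spread between libraries, which may in part be technical.

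Platelet-derived growth factors signal through a pair of receptor tyrosine kinases: PDGFR-alpha, carried mainly by fibroblasts, and PDGFR-beta, carried by pericytes, mesangial cells and vascular smooth muscle. These mesenchymal cells lie between the tubules, around the capillaries and inside the glomerulus, and they are the main producers of fibrillar collagen in the kidney. When they take on a contractile, myofibroblast state, as in fibrosis, they raise smooth muscle actin and collagen transcripts together.

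Library totals ran from 14825417 to 21403804 counts, and the 8 genes other than Tagln had at least 199 counts in every library. Levels are given in CPM, counts relative to the library total after scaling by edgeR's TMM factors, as mean ± SD where averaged. Aqp3 itself was read at 93.4 to 137 CPM across the 28 libraries. The labels describe changed forms of the protein, not its loss, so this level is no check of the genotypes. Of the libraries, 3 stood apart. Mitochondrial transcripts took 7.74% of counts in male Q replicate 4 and 3.94% in female Q replicate 5, where the remaining 26 had 9.56 to 12.1%. The library labelled female WT replicate 2 read Xist at 0.515 CPM, while the remaining 12 females had 214 to 435 CPM. Kidney tubule genes (8 genes, such as Lrp2 and Slc34a1) summed to 9710 to 14200 CPM, as the tissue label says.

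Upstream sequence is shown for 4 of the genes on which the results turn: Rgs5 and Col3a1, which had the largest sex differences, Col1a2, whose sex difference had the smallest error, and Acta2, which had the highest level per kilobase and no sex difference that passed. Each is the 250 bases before the RefSeq start of the gene on GRCm38.p6, read 5′ to 3′ on the gene's strand. Capitals mark matches, on either strand, to the letters of the CCAAT box and to those of the GC box, which are GGGCGG. They also mark TATAAA, the core of the TATA box, and its relative TATATA. A CArG box, the site of serum response factor in contractile genes, was searched too.
Rgs5 (chr1:169655251-169655500, plus strand): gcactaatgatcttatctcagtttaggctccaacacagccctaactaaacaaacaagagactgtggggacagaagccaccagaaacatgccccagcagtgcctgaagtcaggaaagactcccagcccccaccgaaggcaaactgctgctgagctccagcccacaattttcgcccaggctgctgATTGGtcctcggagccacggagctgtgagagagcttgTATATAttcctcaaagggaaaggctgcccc
Col1a2 (chr6:4505368-4505617, plus strand): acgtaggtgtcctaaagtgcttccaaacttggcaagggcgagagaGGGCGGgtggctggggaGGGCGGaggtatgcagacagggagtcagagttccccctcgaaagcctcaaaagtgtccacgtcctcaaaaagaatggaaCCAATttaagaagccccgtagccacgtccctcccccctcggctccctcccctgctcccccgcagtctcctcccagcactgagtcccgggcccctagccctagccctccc
Col3a1 (chr1:45311288-45311537, plus strand): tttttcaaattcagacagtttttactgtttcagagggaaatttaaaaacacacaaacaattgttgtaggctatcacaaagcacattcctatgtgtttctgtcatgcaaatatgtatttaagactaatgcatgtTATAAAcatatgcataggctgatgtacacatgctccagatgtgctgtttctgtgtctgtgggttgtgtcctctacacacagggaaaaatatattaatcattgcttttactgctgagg
Acta2 (chr19:34255374-34255623, minus strand): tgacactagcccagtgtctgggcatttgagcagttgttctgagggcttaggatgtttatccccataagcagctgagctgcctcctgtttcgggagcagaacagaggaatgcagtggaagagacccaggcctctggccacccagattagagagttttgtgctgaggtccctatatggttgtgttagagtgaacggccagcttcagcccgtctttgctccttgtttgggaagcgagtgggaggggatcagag
Rgs5 held a CCAAT box on its reverse strand at -67 and a TATATA at -30, counted from the start of the gene. Col1a2 held GC boxes at -205 and -188 and a CCAAT at -109, Col3a1 held a TATAAA at -117, and Acta2 held no match to the CCAAT, GC box or TATA letters in this window. The CArG box was searched only in its strict form, with no mismatch allowed, which was matched in none of the 4. Serum response factor elements known in the Acta2 promoter depart from that form, so the search says nothing about them. Matches of the TATA letters can overlap each other. On both strands the CCAAT box was found in 33.8% of 32851 promoters of the same length, the GC box in 32.7%, TATAAA in 12.4%, TATATA in 5.25% and the strict CArG box in 1.47%. These matches are letters in a window, not sites shown to be bound.

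Per kilobase of exon, Acta2, the actin of contractile smooth muscle, had the highest level of the 9 at 13.4 CPM per kb over all libraries. Rgs5, a regulator of G protein signalling that marks pericytes, followed at 8.63 CPM per kb and Pdgfrb at 6.35. Dcn, a small proteoglycan that coats collagen fibrils, Col1a2 and Col3a1 lay close together at 5.19, 4.94 and 4.7 CPM per kb. The ranges of these 3 over males (3.74 to 6.2, 3.89 to 5.18 and 3.13 to 4.74 CPM per kb) overlapped, so their order is not fixed. Col1a1 reached 3.67 and Pdgfra 2.99 CPM per kb, and Tagln, the actin-binding transgelin of smooth muscle, 0.658. Tagln was counted at only 7 to 38 fragments per library, and 67.9% of its exon bases are shared with genes on the opposite strand, chiefly the antisense gene Gm48529. The counts were made without strand and without an option for fragments over several genes. Such settings leave a fragment that overlaps exons of both genes uncounted. The Tagln values are therefore uncertain and likely too low, and by how much was not tested. The other genes shared at most 6.5% of their exon bases with a neighbour.

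**Figure D1:**
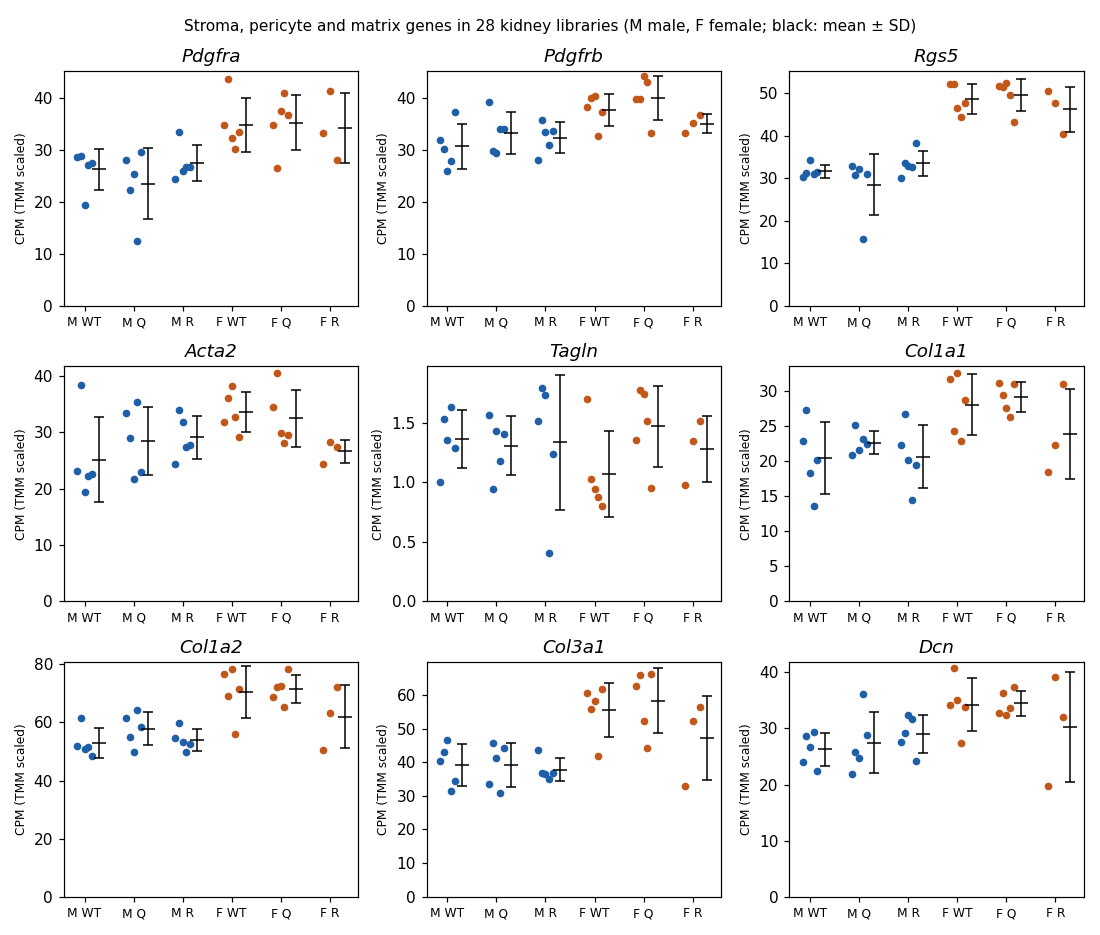
Level of each of the 9 genes (vertical axis, CPM with TMM scaling, from 0) in each of the 28 libraries (points) by group (horizontal axis, M male in blue, F female in orange), with the group mean and SD in black. The 15 male values of Rgs5 (15.6 to 38.3 CPM) lie below all 13 female values (40.3 to 52.3 CPM), while the sexes overlap in the other 8 genes.

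Stromal transcripts were lower in male than in female kidneys. Averaged over the 3 genotypes, Pdgfra, Pdgfrb, Rgs5, Col1a1, Col1a2, Col3a1 and Dcn were lower in males at an adjusted p under 0.05 (edgeR's quasi-likelihood test, Benjamini-Hochberg over 17573 genes), which is 7 of the 9. Sex differences were common in this tissue: 40.2% of all tested genes passed in either direction, 21.3% lower and 18.9% higher in males. The median log2 difference, male minus female, was -0.31 over the 9 genes and -0.04 over all tested genes. Without the 3 libraries that stood apart, the same 7 genes passed, at -0.57 to -0.23. In a whole tissue, fewer cells of a type and less RNA per cell cannot be told apart. Scaling enters this comparison, since TMM factors were 0.82 to 0.998 in males and 1.03 to 1.11 in females. With library totals alone, a setting chosen after the data were seen, the median of all genes moved to -0.20, 80.3% of the genes that passed were lower in males instead of 53%, and 8 of the 9 genes passed, with Acta2 added at -0.32 (edgeR adjusted p = 0.00403). Of all tested genes, 50.1% passed in either direction under that setting and 40.2% were lower in males.

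**Figure D2:**
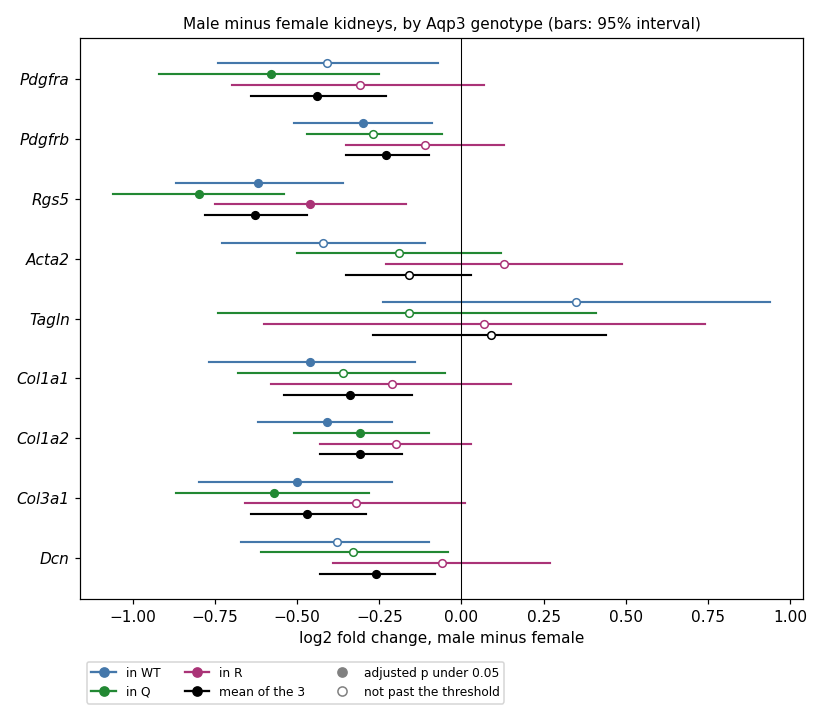
Log2 fold change, male minus female (horizontal axis), of each of the 9 genes (vertical axis) in WT, Q and R kidneys and as the mean of the 3, with 95% intervals as bars; filled points passed an adjusted p under 0.05. Rgs5 passed in each genotype and lay between -0.80 and -0.46, and 8 of the 9 mean values lie below 0, with Tagln above it (below it with library totals alone).

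Rgs5 had the largest sex difference of the 9. Male libraries read Rgs5 at 30.3, 31.3, 34.2, 31 and 31.4 CPM in WT, 32.9, 30.9, 32.2, 15.6 and 30.9 in Q, and 30.1, 33.6, 32.8, 32.8 and 38.3 in R. Female libraries read it at 52.1, 52.2, 46.6, 44.4 and 47.7 CPM in WT, 51.6, 51.5, 52.3, 49.5 and 43.1 in Q, and 50.5, 47.7 and 40.3 in R. Every male value lay below every female value, and male Q replicate 4, at 15.6 CPM, lay far below the other males. The mean over genotypes was -0.63 (SE 0.0758, 95% interval -0.78 to -0.47, edgeR adjusted p = 6.4e-08), which is 1.54-fold higher in females. Without male Q replicate 4 the difference was -0.57. Within genotypes it was -0.62 in WT, -0.80 in Q (-0.64 without that library) and -0.46 in R.

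Both receptors were lower in males, with the larger estimate in Pdgfra, the fibroblast receptor; the difference between them was not tested. Pdgfra in males was 28.7, 28.9, 19.4, 27.1 and 27.5 CPM in WT, 28, 22.2, 25.3, 12.4 and 29.5 in Q, and 24.3, 33.5, 26, 26.8 and 26.7 in R. In females, Pdgfra was 34.8, 43.7, 32.2, 30.3 and 33.5 CPM in WT, 34.8, 26.5, 37.4, 40.9 and 36.7 in Q, and 33.2, 41.4 and 28 in R. The sexes overlapped: 7 of the 13 females lay above the highest male, male R replicate 2 at 33.5 CPM, and the remaining 6, from 26.5 CPM up, lay within the male range. The difference was -0.44 (SE 0.0996, edgeR adjusted p = 0.000745), and -0.37 without male Q replicate 4, where Pdgfra was 12.4 CPM. Pdgfrb, the receptor of pericytes and mesangial cells, was 31.8, 30.1, 25.9, 27.9 and 37.3 CPM in WT, 39.2, 29.7, 29.3, 34 and 33.9 in Q, and 27.9, 35.6, 33.4, 30.9 and 33.6 in R in males. Pdgfrb in females was 38.1, 39.9, 40.2, 32.7 and 37.2 CPM in WT, 39.7, 39.7, 44.2, 43 and 33.1 in Q, and 33.2, 35 and 36.7 in R. Male and female ranges (25.9 to 39.2 and 32.7 to 44.2 CPM) overlapped, and the difference was -0.23 (SE 0.0618, edgeR adjusted p = 0.00396).

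The chains of type I collagen, Col1a1 and Col1a2, and the single chain of type III collagen, Col3a1, were all lower in males. Col3a1 in males was 40.4, 43, 46.6, 31.4 and 34.5 CPM in WT, 33.6, 45.8, 41.4, 30.7 and 44.1 in Q, and 43.6, 36.7, 36.6, 34.9 and 36.9 in R. Col3a1 in females was 60.5, 55.8, 58.1, 41.9 and 61.8 CPM in WT, 62.8, 65.8, 52.3, 44.3 and 66.3 in Q, and 32.9, 52.3 and 56.4 in R. Most female libraries lay above the male maximum of 46.6 CPM, but female R replicate 1 (32.9 CPM), female WT replicate 4 (41.9 CPM) and female Q replicate 4 (44.3 CPM) lay within the male range. The difference was -0.47 (SE 0.0867, edgeR adjusted p = 6.14e-05). Col1a2 in males was 52, 61.6, 50.9, 51.5 and 48.4 CPM in WT, 61.7, 55, 49.9, 64.3 and 58.3 in Q, and 54.6, 60.0, 53.3, 49.7 and 52.6 in R. Col1a2 in females was 76.8, 69.1, 78.5, 56.1 and 71.7 CPM in WT, 68.9, 72.3, 72.4, 65.5 and 78.4 in Q, and 50.5, 63.2 and 72.2 in R. The lowest female, again female R replicate 1 at 50.5 CPM, was level with males, while most females lay above the male maximum of 64.3 CPM. The Col1a2 difference was -0.31 (SE 0.06, edgeR adjusted p = 0.000123). Col1a1 in males was 22.8, 27.3, 18.2, 13.5 and 20.1 CPM in WT, 20.9, 25.1, 21.6, 23.1 and 22.4 in Q, and 22.2, 26.7, 20.2, 14.4 and 19.4 in R. Col1a1 in females was 31.7, 24.3, 32.5, 22.8 and 28.7 CPM in WT, 31.1, 29.4, 27.6, 26.3 and 31 in Q, and 18.4, 22.3 and 30.9 in R. These ranges (13.5 to 27.3 and 18.4 to 32.5 CPM) overlapped broadly, and the difference was -0.34 (SE 0.0942, edgeR adjusted p = 0.00404).

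Dcn had the largest p of the 7. Dcn in males was 24, 28.7, 26.7, 29.4 and 22.5 CPM in WT, 21.8, 25.9, 24.8, 36.2 and 28.8 in Q, and 27.5, 29.2, 32.4, 31.8 and 24.2 in R. Dcn in females was 34.3, 40.8, 35.1, 27.3 and 33.8 CPM in WT, 32.7, 36.4, 32.4, 33.6 and 37.3 in Q, and 19.7, 39.1 and 32 in R. The medians were 27.5 CPM in males and 33.8 CPM in females, but the lowest value of all, 19.7 CPM, was female, and male Q replicate 4, at 36.2 CPM, was the highest male. The 3 female R libraries were spread the widest, at 19.7, 39.1 and 32.0 CPM. The difference was -0.26 (SE 0.0854, edgeR adjusted p = 0.0166), and it no longer passed without female R replicate 2 (-0.18, edgeR adjusted p = 0.0937).

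The contractile genes did not pass over the genotypes. Acta2 in males was 23.2, 38.4, 19.4, 22.2 and 22.6 CPM in WT, 33.5, 29, 21.7, 35.3 and 22.9 in Q, and 24.4, 34, 31.8, 27.4 and 27.8 in R. Acta2 in females was 31.9, 36.1, 38.2, 32.8 and 29.2 CPM in WT, 34.5, 40.6, 29.8, 28.1 and 29.5 in Q, and 24.4, 28.2 and 27.4 in R. Male WT replicate 2, at 38.4 CPM, lay far above the other male WT libraries (19.4 to 23.2 CPM), and the sexes overlapped. The difference was -0.16 (SE 0.0924, 95% interval -0.35 to 0.03, edgeR adjusted p = 0.168), and it passed without male WT replicate 2 (-0.23, edgeR adjusted p = 0.0201). Within genotypes the Acta2 difference was -0.42 in WT (edgeR adjusted p = 0.0567), -0.19 in Q and 0.13 in R. The WT difference passed in 3 of 28 fits without 1 library each and in 4 of 9 other alternatives. Tagln in males was 1.01, 1.53, 1.36, 1.63 and 1.29 CPM in WT, 1.57, 0.947, 1.43, 1.18 and 1.41 in Q, and 1.52, 1.79, 1.73, 0.404 and 1.24 in R. Tagln in females was 1.7, 1.03, 0.946, 0.878 and 0.802 CPM in WT, 1.36, 1.78, 1.75, 1.52 and 0.951 in Q, and 0.977, 1.35 and 1.52 in R. Both sexes covered nearly the same range, with a difference of 0.09 (SE 0.174, 95% interval -0.27 to 0.44, edgeR adjusted p = 0.728), and the estimate was -0.07 with library totals alone.

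Within genotypes the same test passed fewer of the 9. In WT, Pdgfrb, Col1a1, Col1a2, Col3a1 and Rgs5 were lower in males (5 of 9, against 16.5% of all genes in either direction and 8.31% lower). In Q, Pdgfra, Col1a2, Col3a1 and Rgs5 were lower (4 of 9, against 23.1% of all genes and 11.2% lower). In R, with 3 female libraries, only Rgs5 was lower (1 of 9, against 14.1% and 7.01%), at -0.46 (SE 0.143, edgeR adjusted p = 0.0259). Without TMM factors the counts were 8 in WT, 8 in Q and 2 in R. Of all tested genes, 20.9% then passed in WT (15.9% lower), 30% in Q (24% lower) and 17.3% in R (12.9% lower). The share of all calls that were lower in males rose from 50.3 to 76.2% in WT, from 48.4 to 79.9% in Q and from 49.8 to 74.4% in R. The WT count rested on single libraries: it was 2 without male WT replicate 4, 3 without male WT replicate 3, male R replicate 3, female WT replicates 1, 3 or 5, or female Q replicate 3 (each alone), and 8 without male Q replicate 4. The R call was lost without male R replicate 1, 3 or 4 or female R replicate 1 or 2, with edgeR adjusted p from 0.0531 to 0.15. Of 28 fits that left out 1 library each, Col1a2 and Rgs5 passed in WT in all 28, Col3a1 in 27, Col1a1 in 20 and Pdgfrb in 13. Pdgfrb did not pass in WT without the library labelled female WT replicate 2 (-0.27, edgeR adjusted p = 0.112). Whether the sex difference itself changed with genotype was tested for all 9 genes, and 0 of 9 passed for Q against WT or for R against WT (0% of all tested genes in both). Before adjustment, edgeR gave p under 0.05 for 0 and 1 of the 9, and DESeq2 passed 0 in both.

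Neither Aqp3 form was followed by a change in these genes that passed the test. In males, 0 of 9 passed for Q against WT, R against WT and Q against R, and 0 of 9 passed in each of the same comparisons in females and over both sexes, with 0% of all 17573 genes called in each of the 9. Unadjusted p-values under 0.05 were found for 0 of the 9 genes in these comparisons by edgeR, where 235 to 897 of all genes had one, and DESeq2 called 0 of the 9 as well. Group means of Rgs5, Pdgfrb and Col1a2 lay close together within each sex. Among males, Rgs5 was 31.6 ± 1.51 CPM in WT, 28.5 ± 7.26 in Q and 33.5 ± 2.98 in R, and Pdgfrb was 30.6 ± 4.36 CPM in WT, 33.2 ± 4.03 in Q and 32.3 ± 2.97 in R. Among females, Rgs5 was 48.6 ± 3.47 CPM in WT, 49.6 ± 3.77 in Q and 46.2 ± 5.26 in R, and Pdgfrb was 37.6 ± 3.05 CPM in WT, 39.9 ± 4.29 in Q and 35 ± 1.78 in R. In each of these the SDs of the groups overlapped. Col1a2 was 52.9 ± 5.07 CPM in WT, 57.8 ± 5.67 in Q and 54 ± 3.77 in R in males and 70.4 ± 8.85 CPM in WT, 71.5 ± 4.83 in Q and 62 ± 10.9 in R in females. Within males, estimates for the 9 genes on the log2 scale ran from -0.16 to 0.18 for Q against WT, from -0.06 to 0.21 for R against WT and from -0.23 to 0.13 for Q against R. Within females they ran from -0.05 to 0.47, from -0.34 to 0.27 and from 0.05 to 0.30, with the highest of the first 2, 0.47 and 0.27, in the sparsely counted Tagln. Averaged over the sexes, Q against WT ranged from -0.07 in Pdgfra to 0.21 in Tagln on the log2 scale. R against WT ranged from -0.15 in Col3a1 to 0.13 in Tagln. The 95% intervals of the 8 genes other than Tagln lay between -0.31 and 0.32 for Q against WT and between -0.37 and 0.27 for R against WT. A change beyond these limits over both sexes is outside the interval of each of the 8. For smaller changes it depends on the gene, as the Col1a2 interval for Q against WT was -0.07 to 0.22.

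**Figure D3:**
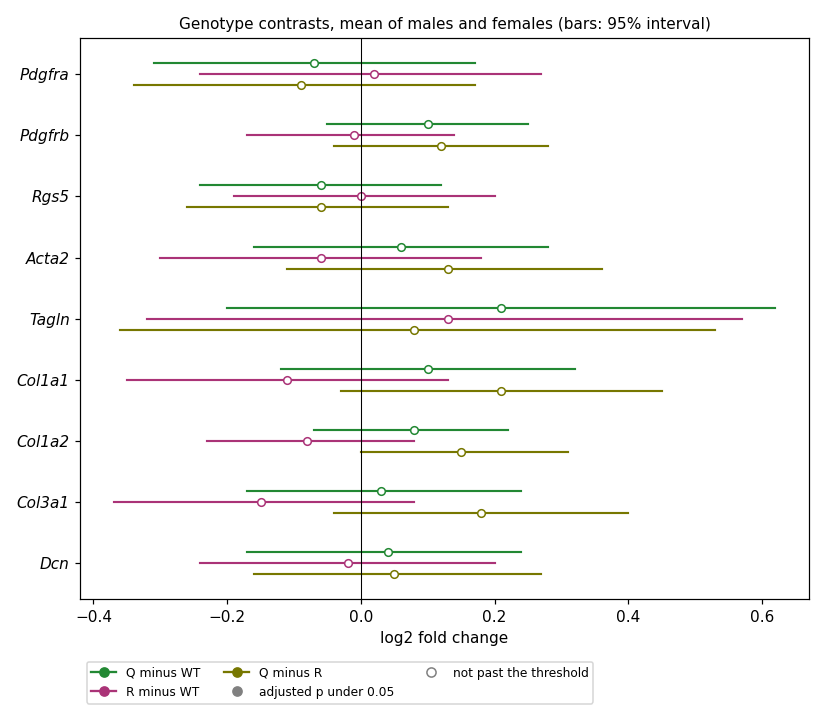
Log2 fold change (horizontal axis) of each of the 9 genes (vertical axis) for Q minus WT, R minus WT and Q minus R, each averaged over the sexes, with 95% intervals as bars. Every interval reaches or crosses 0 and no point is filled, since 0 of 9 genes passed in each comparison.

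Among the genotype comparisons averaged over the sexes, the 3 collagens had their largest estimates in Q against R: 0.21 for Col1a1 (SE 0.119), 0.15 for Col1a2 (SE 0.0757) and 0.18 for Col3a1 (SE 0.11), all with an edgeR adjusted p of 0.986. Female R replicate 1 was the lowest female library for Col1a1, Col1a2, Col3a1, Dcn and Acta2. Without it the same estimates were 0.13, 0.09 and 0.08. Pdgfra and Rgs5 in male Q against male WT rested on 1 library: without male Q replicate 4 both estimates were 0.00. Acta2 gave the single unadjusted p under 0.05 among the interactions. Its mean was 25.2 CPM in male WT, 29.1 in male R, 33.6 in female WT and 26.7 in female R, so the R mean lay above the WT mean in males and below it in females. The difference of these changes was 0.55 (SE 0.234). The unadjusted edgeR p was 0.0259, and the difference did not pass over all genes (edgeR adjusted p = 0.992).

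Apart from sex and genotype, Col1a1 varied together with Col1a2 and with Col3a1 from library to library. Each library's log2 CPM was taken as its deviation from its group mean, and the 36 pairs of the 9 genes were compared over 28 libraries. Of these pairs, 3 passed (permutation within groups, 2-sided, 100000 draws, Benjamini-Hochberg over 36 pairs), all positive. Col1a1 and Col1a2, whose products join in one triple helix, had Pearson's r = 0.68 (permutation p = 0.00022, adjusted p = 0.00792) and Spearman's rho = 0.63 (adjusted p = 0.0497 by permutation). Without the 2 libraries farthest from the Col1a1 median r was 0.76, and it was 0.55 in males and 0.89 in females. Col1a1 and Col3a1 had r = 0.59 (permutation p = 0.00183, adjusted p = 0.0329), 0.56 without the 2 farthest libraries, and rho = 0.53 (adjusted p = 0.151 by permutation). Col1a2 and Acta2 had r = 0.53 (permutation p = 0.00408, adjusted p = 0.049), 0.60 without the 2 farthest, and rho = 0.50 (adjusted p = 0.151 by permutation), with 0.80 in males and 0.25 in females. By Spearman's rho only the first pair passed. The remaining collagen pair, Col1a2 and Col3a1, had r = 0.48 and did not pass (adjusted p = 0.279 by permutation), with -0.13 in males and 0.86 in females. Pdgfra and Rgs5 had r = 0.66, which did not pass (adjusted p = 0.279 by permutation) and was 0.44 without the 2 libraries farthest from the Pdgfra median. The smooth muscle genes Acta2 and Tagln had r = 0.17.

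**Figure D4:**
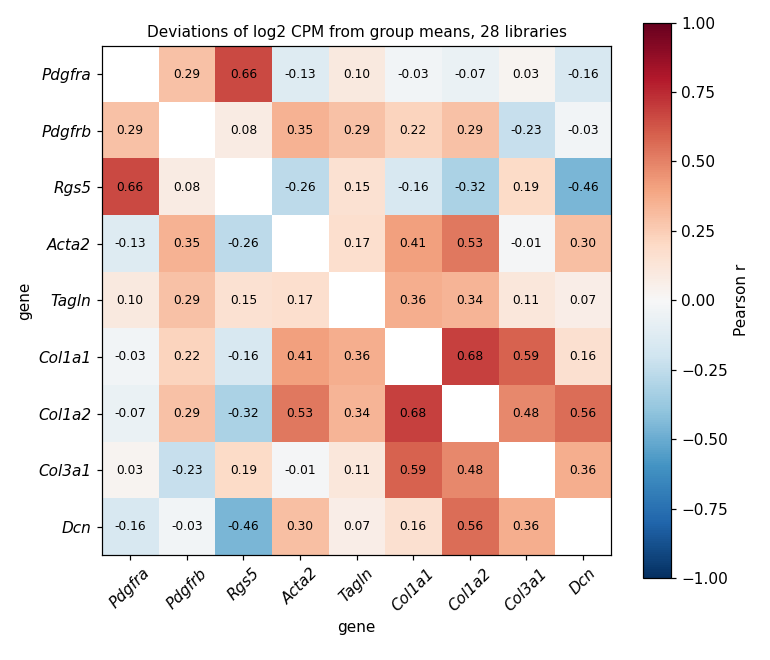
Pearson's r between each pair of the 9 genes (both axes) over 28 libraries, from deviations of log2 CPM from the group means; the colour scale runs from -1 to 1. The type I and III collagen pairs (0.48 to 0.68) are positive. Rgs5 and Dcn are at -0.46, which did not pass (adjusted p = 0.288 by permutation) and was -0.27 without the 3 libraries that stood apart.

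Among all other genes with a mean of at least 1 CPM, the patterns most like each gene were ranked by the same r over 28 libraries, as a description. Col1a1 was most like Adamts2, the protease that trims the amino end of procollagen, at r = 0.83 (0.84 without male Q replicate 4). Col1a2 was most like Crtap, a part of the complex that hydroxylates collagen prolines, at 0.69. Col3a1 was most like Lmnb1 (0.67), Ncapd2 (0.66) and Col4a1, a basement membrane collagen (0.65). Acta2 was most like Npr1, a receptor for natriuretic peptides, at 0.84 (0.83 without male Q replicate 4). The actin crosslinker Actn1 was among the 3 genes most like Pdgfrb, at 0.74. Dcn was most like Ccdc166 (0.68) and Tagln most like Zfpm1 (0.72). Rgs5 reached 0.88 with Tmem167b, Kctd10 and Rab5b, but these fell to 0.43, 0.49 and 0.45 without male Q replicate 4, so they rest on that library. Pdgfra was most like Ccdc82 at 0.84, which was 0.67 without that library.

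Most other matrix genes were also lower in males. Of 13 other collagens tested, 11 were lower and 0 higher in males over the genotypes, where 21.3% of all genes were lower, with a median log2 difference of -0.42. Col5a2, a chain of the collagen that nucleates type I fibrils, was 17 ± 4.6 CPM in males and 30.2 ± 6.88 in females (SD, 15 and 13 libraries), a difference of -0.82 (SE 0.142, edgeR adjusted p = 3.19e-05). Col16a1 differed by -0.57, Col5a1 by -0.49 and Col15a1 by -0.44. With library totals alone the counts were 13 of 13 collagens and 19 of 22 of the next list, where 40.2% of all genes were lower. Of 22 matrix glycoproteins and proteoglycans, 16 were lower and 0 higher (median -0.41). Fn1, fibronectin, was 19.5 ± 2.5 CPM in males and 36.3 ± 11.7 in females, a difference of -0.85 (SE 0.121, edgeR adjusted p = 1.61e-06), and Efemp1, Fbln1 and Thbs2 differed by -0.58, -0.63 and -0.70.

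Genes of the cells that carry the 9 markers were called lower in males more often than higher. Over all tested genes, 21.3% were lower and 18.9% higher. Of 15 further pericyte genes, 6 were lower and 2 higher in males: Gucy1a1 and Gucy1b1, the subunits of the nitric oxide receptor, differed by -0.63 and -0.66 and Angpt1, a ligand of Tek, by -0.48, while the channel subunit Kcnj8 was higher by 0.40 (0.24 with library totals alone). Of 21 smooth muscle contractile genes, 5 were lower and 1 higher, a share of lower genes near that of all genes, with Myh11 at -0.32 and Cald1 at -0.24; with library totals alone 15 were lower and 0 higher, where 40.2% of all genes were lower. Of 11 mesangial and juxtaglomerular genes, 6 were lower and 1 higher. Trpc1, with the smallest p of this list, was higher by 0.42 (0.26 with library totals alone), and the mesangial integrin Itga8 differed by -0.51. Of 22 interstitial fibroblast genes, 11 were lower and 2 higher: Smoc2 differed by -0.56 and the regulator Tcf21, which podocytes also express, by -0.50, whereas Nt5e (1.26) and Ly6a (0.73), which other kidney cells also express, were higher in males. With library totals alone, 10 pericyte, 9 mesangial and juxtaglomerular and 15 interstitial fibroblast genes were lower. The higher genes stayed at 2, 1 and 2 in these lists. Summed levels, which weigh abundant genes most, did not all follow the counts. For interstitial fibroblast genes the median sum was 1160 CPM in males and 1000 CPM in females. Ly6a alone averaged 610 ± 239 CPM in males and 367 ± 42.7 CPM in females. Median sums in males and females were 245 and 251 CPM for pericyte genes and 739 and 810 CPM for smooth muscle genes. For mesangial and juxtaglomerular genes they were 261 and 289 CPM. The 4 PDGF ligands did not pass in either direction (0 of 4), with log2 differences from -0.11 in Pdgfa to 0.13 in Pdgfd and a smallest unadjusted edgeR p of 0.0993. Without the 3 libraries that stood apart, Pdgfa passed as lower and Pdgfd as higher, and with library totals alone Pdgfa, Pdgfb and Pdgfc passed as lower.

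**Figure D5:**
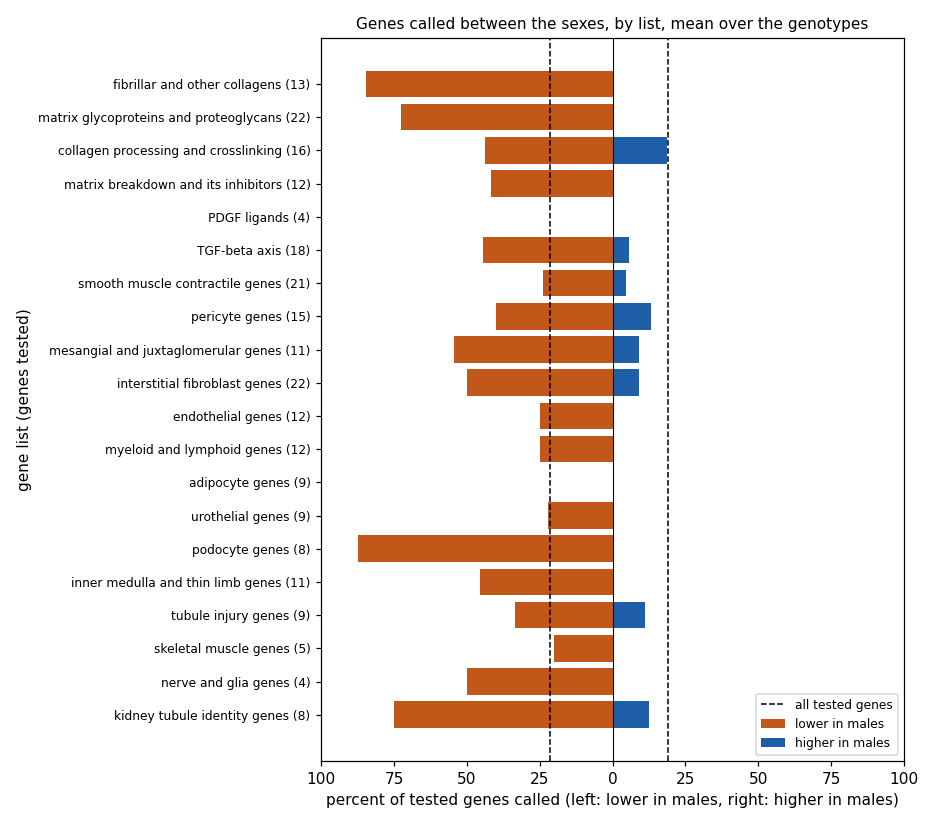
Share of the tested genes of each list (vertical axis, number tested in brackets) that were lower (left, orange) or higher (right, blue) in males over the genotypes, in percent (horizontal axis), with the shares over all tested genes as dashed lines (21.3% and 18.9%). Collagens (11 of 13 lower) and podocyte genes (7 of 8 lower) reach farthest to the left, and the PDGF ligands and adipocyte genes have no bar.

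Markers of other cell types were set beside these genes, and their part in the result was not tested. The shares to read them against are the 21.3% of all genes that were lower in males, or 40.2% with library totals alone. Podocyte genes were lower in males for 7 of 8, with summed levels of 247 to 368 CPM in males and 330 to 444 in females. Endothelial genes were lower for 3 of 12 (590 to 791 CPM in males, 712 to 890 in females), which became 7 without the 3 libraries that stood apart and 10 with library totals alone, and myeloid and lymphoid genes for 3 of 12 (274 to 576 and 298 to 695 CPM), or 9 with library totals alone. Inner medulla and thin limb genes were lower for 5 of 11 (673 to 1280 and 773 to 1560 CPM), urothelial genes for 2 of 9, nerve and glia genes for 2 of 4 and skeletal muscle genes for 1 of 5. Of the 8 tubule identity genes, 6 were lower and 1, Slc34a1, the phosphate transporter of the proximal tubule, was higher. Adipocyte genes passed for 0 of 9 (Cfd had an unadjusted edgeR p of 0.0298, and it passed without the 3 libraries or with library totals alone), with summed levels that varied widely in both sexes (32.7 to 243 and 46.6 to 273 CPM). Markers at 0 counts in every library of a group, named for that reason after their values were seen, were Lep, the adipocyte hormone, in female R, Th in 5 of the 6 groups, Dbh in male Q and female R, Myh2 in both WT groups and Myh4 in female R. In the genotype comparisons and interactions, 0 genes of any of the 20 lists passed.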

How the data were processed

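The deposited values are raw counts of fragments per gene, whole numbers with no scaling. Per the file headers, the authors made these counts with featureCounts v2.0.1 over exons of the Ensembl 107 annotation of GRCm39, with paired ends, no strand option and no option for reads with several placements or fragments over several genes. The submitters' processing notes also name DESeq2 1.38.3, SAMtools 1.6 and Trim Galore 0.6.7, and the aligner is not given in the sources used here. A symbol was found for 52073 of 56748 genes; the rest held 0.669% of counts.

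The analysis used edgeR 4.0.16 in R 4.3.3. The filter filterByExpr on the 6 groups kept 17573 genes with 99.91% of counts, libraries were scaled by TMM, and one model with a mean for each group was fitted to all 28 libraries (22 residual degrees of freedom, square root of the common dispersion 0.176). For 15 comparisons the robust quasi-likelihood test was run, with p adjusted by Benjamini-Hochberg over the whole table, and a gene passed under 0.05. Standard errors are the absolute log2 fold change over the square root of F and are approximate, as are the 95% intervals built on them. Comparisons over both sexes or over the genotypes are means of the separate ones. Deviations for correlations came from log2 CPM with a prior count of 2. The code was tested on simulated data. Alternatives were DESeq2 1.42.0 size factors and its Wald test, no filter, a replicate block, mitochondrial genes left out, fits of only the groups compared, fits without the libraries that stand apart, 28 fits without 1 library each and, added after the data were seen, library totals without TMM, and the list counts under other scalings and without the 3 libraries that stand apart.

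The 9 genes and the 20 lists of related genes (251 genes, 250 in the table) were chosen with earlier results of these data known. All 9 genes are named throughout, up to 4 genes with the smallest p in each list described are named, and the 3 most alike genes were ranked for each of the 9, of which 1 to 3 are named. Exon lengths and overlaps come from GENCODE M21 on GRCm38 and upstream sequences from RefSeq on GRCm38.p6, both older than GRCm39 and matched by symbol, with an upstream entry used for 5 of the 9.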

Additional observations from a re-analysis of the deposited data

Results flagged for a closer look

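In 8 of 45 sets of 5 libraries (9 genes in 5 groups), the highest or lowest library lay apart from the others by Dixon's test at the 95% level, where chance flags about 1 in 20. Of these, 7 were in male groups, but most of the sets were male, since female R, with 3 libraries, was left out. The 9 genes were read in the same libraries, so the sets are not independent. Rgs5 in male Q replicate 4 was 15.6 CPM, against 30.9 to 32.9 CPM in the other male Q libraries, and that library also had a low share of mitochondrial transcripts (7.74%). Rgs5 in male WT replicate 3 was 34.2 CPM (others 30.3 to 31.4). Pdgfra was 19.4 CPM in male WT replicate 3 (others 27.1 to 28.9) and 33.5 CPM in male R replicate 2 (others 24.3 to 26.8). Male WT replicate 2 was high in both Acta2, at 38.4 CPM (others 19.4 to 23.2), and Col1a2, at 61.6 CPM (others 48.4 to 52.0). Col3a1 in male R replicate 1 was 43.6 CPM (others 34.9 to 36.9). Tagln in female WT replicate 1 was 1.7 CPM (others 0.802 to 1.03), a gene with few counts. No cause was tested for any of them.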

How the results depend on the processing

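The number of the 9 genes lower in males over the genotypes was 7 and ran from 6 to 8 when each of the 28 libraries was left out in turn. In WT it was 5 and ran from 2 to 8, in Q it was 4 and ran from 3 to 5, and in R it was 1 and ran from 0 to 1. Library totals without TMM gave 8 in WT, 8 in Q and 2 in R, where 15.9%, 24% and 12.9% of all tested genes were lower. Leaving out male Q replicate 4 and female Q replicate 5 together gave 8 in WT. The cause was not tested. No called sex difference changed sign under any alternative. In the genotype comparisons and interactions, 3663 values of the 9 genes under the alternatives gave 0 calls, with a lowest adjusted p of 0.475 (edgeR or DESeq2), and 126 of these uncalled values had another sign than the main one. Of the correlated pairs, 3 passed with a prior count of 0.5 and 2 without the 3 libraries that stand apart.

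Replicate numbers are shared between groups in the labels but did not pair the libraries: of 65 same-numbered pairs 5 had a correlation of deviations over 0.1 (range -0.291 to 0.205, median 0.00573, against -0.00237 for other numbers), and 5 of 28 libraries correlated best with their own number. With a replicate block the counts were 6 in WT, 4 in Q, 0 in R and 7 over the genotypes.

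Tagln, at 7 to 38 counts per library, is limited by its few counts and by its antisense neighbour, and the R comparison by 3 female libraries.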

Other observations

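Genes that process collagen were called in both directions between the sexes. Of 16 tested over the genotypes, 7 were lower and 3 higher in males, against 21.3 and 18.9% of all genes. The share that was higher thus lay near that of all genes. The enhancers and enzymes of procollagen trimming were lower: Pcolce2, an enhancer of the trimming of the carboxyl end, was 2.11 ± 0.67 CPM in males and 10.7 ± 1.43 in females (SD, 15 and 13 libraries), a log2 difference of -2.36 (SE 0.106, edgeR adjusted p = 9.27e-18), and Bmp1, the protease it assists, differed by -1.03 (SE 0.074). Of the proline hydroxylation genes, Crtap and P4ha2 were higher in males by 0.54 and 0.46 (0.38 and 0.30 with library totals alone), while P3h1, the partner of Crtap, named after its values were seen, was among the 7 that were lower. Of 12 genes of matrix breakdown and its inhibitors, 5 were lower and 0 higher, with the matrix metalloproteinases Mmp14, Mmp11 and Mmp2 at -0.61, -0.59 and -0.63 and the inhibitor Timp2 at -0.26. With library totals alone the counts were 10 lower and 2 higher in the first list and 7 lower in the second, where 40.2% of all genes were lower.

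Of 18 genes of the TGF-beta axis, 8 were lower and 1 higher in males, or 12 and 1 with library totals alone, against 21.3 and 40.2% of all genes that were lower under these scalings. Tgfb2, a TGF-beta ligand, was 1.87 ± 0.418 CPM in males and 6.79 ± 4.69 in females, a log2 difference of -1.79 (SE 0.203, edgeR adjusted p = 2.56e-08). The co-receptor Tgfbr3 and the latent ligand binder Ltbp3 differed by -0.53 and -0.45, and the signal transducer Smad2 was higher in males by 0.36 (0.21 with library totals alone). Of 9 tubule injury genes, 3 were lower and 1 higher, where 21.3% of all genes were lower: Spp1, osteopontin, was 521 ± 72.9 CPM in males and 1410 ± 149 in females (-1.44, SE 0.0641, edgeR adjusted p = 8.67e-18), and Havcr1, the kidney injury molecule, was higher in males by 1.37 at a low level (2.09 ± 1.04 and 0.822 ± 0.566 CPM).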
